A study of Mus musculus with 8 samples.

Results

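The genes described here are MYC, 3 of its partners or relatives, and 30 genes of ribosome biogenesis and of the growth metabolism that MYC is known to drive. They were chosen as a list of 34 named genes, and each was read from the probe with exactly 1 gene symbol and the highest mean over the tumours. Such a probe was found for 33 of the 34 genes, out of 22180 genes with a probe of this kind. The gene without one was Fbl, the methyltransferase fibrillarin, whose annotated probe carries a second gene symbol. All 33 lay above the limit of 4.06 set for dim genes on the log2 scale, so none was lost to that filter. Gene expression had been measured in 8 primary mammary tumours of transgenic mice of the inbred FVB strain, with 1 Affymetrix whole-transcript array per tumour. There were 4 tumours of genotype NeuNT/H1074R, which carry a mutant p110α (the PI3K catalytic subunit encoded by Pik3ca) on top of NeuNT, and 4 tumours of genotype NeuNT. NeuNT, a form of Neu, the rodent ErbB2 receptor, was thus shared by all tumours, and the comparison asks how mutant and wild-type p110α tumours differ on that background. The labels write the mutation as H1074R and the series title numbers the residue differently. They name neither the promoter behind the transgenes nor the age of the mice, and do not say whether the tumours came from separate mice, so a p-value here speaks of the spread among the 8 tumours alone. Tumours are called replicates 1 to 4 within each genotype.

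MYC is a transcription factor that pairs with MAX and binds E-box letters near gene starts, while MXD proteins compete for MAX and repress many of the same genes. In the nucleolus RNA polymerase I makes the ribosomal RNA precursor, small guide RNA particles direct its modification, and large assemblies of processing factors turn it into the small and large ribosomal subunits. Genes of these steps are among the best known MYC targets, and ErbB2 and PI3K signalling also feed into ribosome production through mTOR.

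E-box letters are shown here because MYC and MAX are known to bind them. RefSeq promoter windows (GRCm38.p6, 250 bases before to 50 bases after a start) were found for 28 of the 34 genes. Myc, Npm1, Fbl, Rrp12, Bop1 and Srm had none in the table. The letters CACGTG, which read the same on both strands, stood in a window of 6 of the 28 genes, a share of 21.4%, against 8.09% of all 27025 genes with a window. The related letters CACGCG, or CGCGTG on the other strand, stood in 10 of the 28 (35.7%), against 10.5% of all genes. The members were listed for known ties to MYC or ribosome biogenesis, and the background was not matched for signal or base content. The shares are thus a description only. The 6 matches to CACGTG follow, 5′ to 3′ on the gene's strand, with the E-box in capitals. They belong to Nop2 (chr6:125131811-125131840, plus strand), Wdr43 (chr17:71616220-71616249, plus strand), Mybbp1a (chr11:72441355-72441376, plus strand), Pes1 (chr11:3963965-3963994, plus strand), Utp20 (chr10:88826765-88826789, minus strand) and Max (chr12:76962234-76962263, minus strand).
Nop2: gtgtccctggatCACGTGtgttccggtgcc
Wdr43: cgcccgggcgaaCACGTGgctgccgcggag
Mybbp1a: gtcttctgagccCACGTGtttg
Pes1: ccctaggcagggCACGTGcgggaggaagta
Utp20: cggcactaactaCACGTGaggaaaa
Max: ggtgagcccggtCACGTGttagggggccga
Counted to the first base of the E-box, the match of Nop2 lay 60 bases and that of Max 3 bases before the annotated start, and those of Pes1, Wdr43, Utp20 and Mybbp1a lay 2, 17, 37 and 40 bases after it. A match describes the letters of these windows and does not show binding.

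No member separated the genotypes after adjustment. Of the 33 members, 0 passed the threshold of 0.05 in either direction (limma, adjusted p of 0.978 or more), as did 0.0% of the 16635 genes tested. At an unadjusted p under 0.05 there was 1 member, Ncl, against 3.82% of all genes. The log2 difference, always NeuNT/H1074R minus NeuNT, was above 0 for 20 members and below 0 for 13, against 49.4% above 0 over all genes. With the arrays normalized by quantiles it was above 0 for 26 and below 0 for 7, and without both NeuNT/H1074R tumours with high muscle markers (replicates 1 and 3) above 0 for 12 and below 0 for 21. Those tumours also had the highest mean member levels of their genotype, so dropping them by itself lowers most differences. With all tumours the median log2 difference was 0.07 over the members and −0.00 over all genes tested. With single tumours left out the members' median ran from 0.01, without NeuNT/H1074R replicate 3, to 0.14, without NeuNT/H1074R replicate 4. The 95% interval of the difference lay inside 1.5-fold in both directions for 22 members, and inside 2-fold for 32, all but Mxd1. Genotypes lay fully apart for 1 member, Ncl, which was higher in NeuNT/H1074R, where 2.69% of all genes lay apart in either direction and 1.59% in that one. In bulk tumour RNA, fewer cells of a type and less RNA per cell cannot be told apart. The array medians lay between 4.81 and 4.87 on the log2 scale and the arrays were used as deposited.

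**Figure D1:**
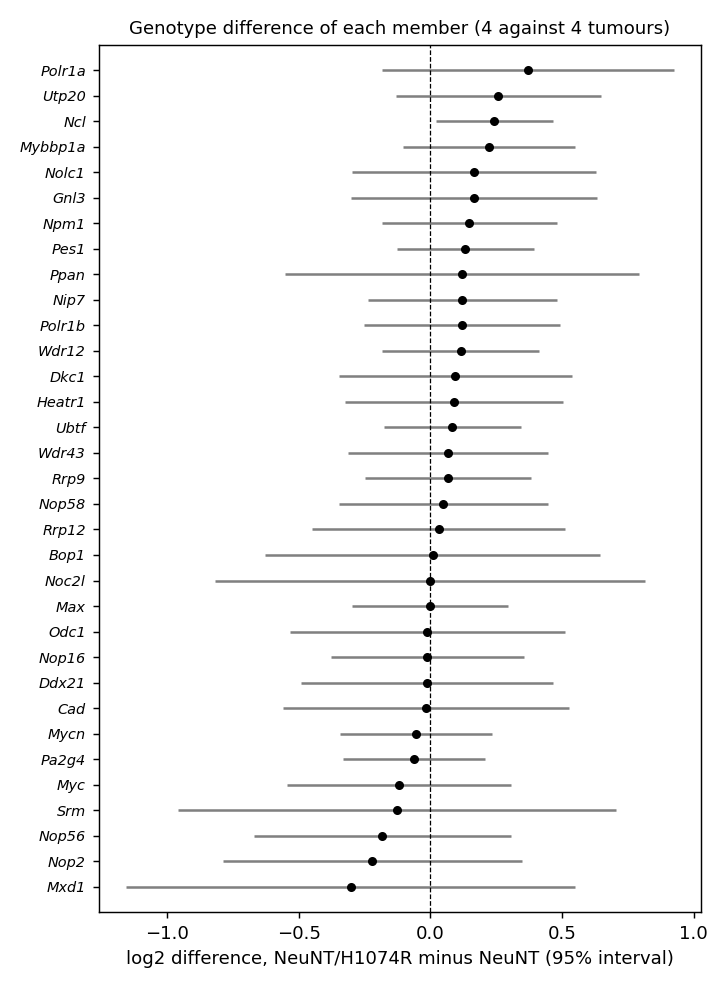
Log2 difference of each of the 33 members (points), NeuNT/H1074R minus NeuNT, with its 95% interval from limma (lines), 4 tumours per genotype. The interval of Ncl alone leaves out 0 (0.02 to 0.46), its adjusted p is 0.978, and the widest interval is that of Mxd1 (−1.16 to 0.55).

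Myc itself did not differ between genotypes beyond its spread. Its log2 signal was 9.56, 8.90, 9.54 and 9.12 in NeuNT/H1074R replicates 1 to 4, and 9.65, 9.24, 9.20 and 9.52 in NeuNT replicates 1 to 4. Both genotypes thus held tumours with more and with less Myc, over a 1.68-fold range. The genotypes differed by −0.12 ± 0.19 (SE) on the log2 scale, with a 95% interval from −0.55 to 0.30 (limma, adjusted p = 0.979), a value that single tumours moved. It was 0.01 without NeuNT/H1074R replicate 2, the tumour with the lowest Myc, and −0.21 without NeuNT/H1074R replicate 1. With array weights it was −0.24, and without both NeuNT/H1074R tumours with high muscle markers −0.39 (limma, unadjusted p = 0.0773).

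Mycn, the MYC relative of neural and embryonic tissues, read 4.81, 4.80, 5.15 and 5.08 in NeuNT/H1074R tumours and 5.08, 4.85, 4.97 and 5.17 in NeuNT tumours (log2). Its genotypes overlapped throughout, with a log2 difference of −0.05 ± 0.13 (SE). Mycn was dim, with a mean above that of only 20.6% of the genes tested, and leaving out the lower 50% of genes removed it. Max, the shared dimer partner, read 8.53, 8.53, 8.73 and 8.61 in NeuNT/H1074R tumours, against 8.32, 8.76, 8.68 and 8.65 in NeuNT tumours. The log2 difference of Max, −0.00 ± 0.13 (SE), was among the smallest of the list, and its sign turned with several single tumours. Mxd1, the MAX partner that opposes MYC, had the widest spread of any member, with a 3.78-fold range. It stood at 9.09, 8.56, 8.94 and 8.54 in NeuNT/H1074R tumours and at 9.11, 7.95, 9.42 and 9.87 in NeuNT tumours, so that NeuNT replicates 2 and 4 held its lowest and highest value. Mxd1 differed by −0.30 ± 0.37 (SE), and it, Mycn and Max all missed the threshold (limma, adjusted p of 0.978 or more). The Mxd1 difference was −0.04 without NeuNT replicate 4 and −0.68 without NeuNT replicate 2 (limma, unadjusted p = 0.0170, adjusted p = 0.9585). As those tumours held its extreme values, both shifts follow from dropping them.

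The RNA polymerase I genes leaned to NeuNT/H1074R, with all 4 log2 differences above 0, from 0.08 to 0.37, none past the test. Polr1a, the largest catalytic subunit, read 7.26, 7.39, 7.25 and 7.13 in NeuNT/H1074R tumours, against 7.32, 6.99, 6.14 and 7.09 in NeuNT tumours. One tumour carried much of that gap, since NeuNT replicate 3 lay far below the rest. The genotypes differed by 0.37 ± 0.24 (SE; limma, adjusted p = 0.978), and by 0.12 without that tumour. Mybbp1a, a MYB-binding nucleolar protein that also acts with the polymerase, stood at 9.27, 8.88, 9.06 and 8.91 in NeuNT/H1074R tumours and 8.84, 8.77, 8.57 and 9.04 in NeuNT tumours. Its log2 difference was 0.22 ± 0.14 (SE), with only NeuNT replicate 4 reaching into the range of the other genotype (limma, adjusted p = 0.978). Polr1b, the second large subunit, and Ubtf, the factor that opens ribosomal DNA for transcription, differed by 0.12 ± 0.16 (SE) and 0.08 ± 0.11 (SE) on the log2 scale.

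Among the nucleolar proteins and chaperones, all 3 had a log2 difference above 0, and Ncl, nucleolin, was the member that best kept the genotypes apart. Its log2 signal was 9.64, 9.57, 9.63 and 9.55 in NeuNT/H1074R tumours, against 9.32, 9.29, 9.32 and 9.48 in NeuNT tumours. Every NeuNT/H1074R tumour lay above every NeuNT tumour, as was so for 1.59% of all genes. Of the variance of Ncl 81.0% lay between the genotypes, the highest share among the 33 members. The median share was 8.11% over all genes and 5.96% over the members. The log2 difference was 0.24 ± 0.10 (SE), a 1.18-fold difference with a 95% interval from 1.01 to 1.38, and it did not pass over all genes (limma, unadjusted p = 0.0356, adjusted p = 0.978). With single tumours left out it ran from 0.22 to 0.28 and the unadjusted p of limma reached 0.0816 when NeuNT replicate 2 was dropped. It was 0.21 (limma, unadjusted p = 0.170) when both NeuNT/H1074R tumours with high muscle markers were dropped. Npm1, nucleophosmin, read 10.34, 10.12, 10.36 and 10.33 in NeuNT/H1074R tumours and 10.25, 9.94, 9.92 and 10.45 in NeuNT tumours. These overlapped, with the highest value in NeuNT replicate 4, and the log2 difference was 0.15 ± 0.15 (SE; limma, adjusted p = 0.978). A second Npm1 probe gave −0.08, but was far dimmer, with means of 5.58 in NeuNT/H1074R and 5.66 in NeuNT tumours. Nolc1, a chaperone of guide RNA particles, ranged from 7.54 to 8.26 in NeuNT/H1074R tumours and from 7.42 to 7.97 in NeuNT tumours.

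The guide RNA particle genes had no common direction. Nop56, a core protein of the box C/D particles, stood at 8.67, 8.22, 8.80 and 7.97 in NeuNT/H1074R tumours, against 8.43, 8.45, 8.56 and 8.95 in NeuNT tumours. Both genotypes overlapped, at −0.18 ± 0.21 (SE; limma, adjusted p = 0.978), and the other 2 Nop56 probes gave 0.62 and 0.01, so the probes disagreed in sign. These other probes were dimmer, with genotype means between 6.07 and 6.69, against 8.41 and 8.60 for the probe used. The Nop56 difference was −0.03 without NeuNT/H1074R replicate 4. It was −0.50 when both tumours with high muscle markers, which had the highest Nop56 of their genotype, were dropped (limma, unadjusted p = 0.0431, adjusted p = 0.7258). Nop58, its partner in the same particles, read 9.18, 8.69, 8.97 and 8.53 in NeuNT/H1074R tumours and 8.85, 8.54, 8.75 and 9.03 in NeuNT tumours. In both genes NeuNT/H1074R replicate 4 was the lowest of all tumours, for Nop58 with NeuNT replicate 2 close to it. The Nop58 log2 difference of 0.05 ± 0.17 (SE) turned to −0.06 without NeuNT/H1074R replicate 1. Dkc1, the pseudouridine synthase of the box H/ACA particles, differed by 0.10 ± 0.19 (SE) on the log2 scale and by −0.03 without NeuNT replicate 3.

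All 5 small subunit factors had a log2 difference above 0, from 0.03 to 0.26, and none passed. Utp20, a scaffold of the small subunit processome, read 7.40, 7.08, 7.04 and 6.99 in NeuNT/H1074R tumours, against 7.10, 6.51, 6.82 and 7.06 in NeuNT tumours. Its genotypes overlapped, and the log2 difference was 0.26 ± 0.17 (SE; limma, adjusted p = 0.978). Wdr43, another processome protein, stood at 8.94, 8.59, 9.16 and 8.51 in NeuNT/H1074R tumours and 8.74, 8.68, 8.62 and 8.91 in NeuNT tumours. NeuNT/H1074R tumours held both its highest and its lowest values, and the log2 difference of 0.07 ± 0.17 (SE) turned to −0.05 without NeuNT/H1074R replicate 3. Rrp9, a protein of the U3 guide RNA particle, read 7.09, 7.02, 6.96 and 6.97 in NeuNT/H1074R tumours and 6.90, 7.12, 6.65 and 7.12 in NeuNT tumours. That is a log2 difference of 0.07 ± 0.14 (SE), or −0.03 without NeuNT replicate 3. Heatr1 and Rrp12 differed by 0.09 ± 0.18 (SE) and 0.03 ± 0.21 (SE) on the log2 scale, and each changed sign without NeuNT/H1074R replicate 1 (−0.01 and −0.10). Rrp12 was also at −0.12 without NeuNT replicate 1.

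Large subunit factors were split, with 6 of 11 log2 differences above 0 and a median of 0.01. Pes1, which forms the PeBoW complex with Bop1 and Wdr12, read 8.94, 8.89, 9.04 and 8.80 in NeuNT/H1074R tumours, against 8.80, 8.65, 8.73 and 8.95 in NeuNT tumours. NeuNT replicates 1 and 4 reached into the range of NeuNT/H1074R, and Pes1 differed by 0.13 ± 0.11 (SE; limma, adjusted p = 0.978). Wdr12 followed Pes1 across tumours (r = 0.95, n = 8), while Bop1 spanned a wider range, 7.09 to 8.37 in NeuNT/H1074R tumours and 7.32 to 7.92 in NeuNT tumours. Nop2, an rRNA methyltransferase, stood at 9.17, 8.91, 9.13 and 8.55 in NeuNT/H1074R tumours and 9.50, 9.16, 8.49 and 9.48 in NeuNT tumours. The low tumours were thus NeuNT/H1074R replicate 4 and NeuNT replicate 3, and the log2 difference was −0.22 ± 0.25 (SE; limma, adjusted p = 0.978). It was −0.44 without NeuNT replicate 3, the tumour with the lowest Nop2 (limma, unadjusted p = 0.0434, adjusted p = 0.9736), and −0.09 without NeuNT/H1074R replicate 4. Noc2l, known from yeast as a transport factor of the large subunit precursor, read 8.44, 7.18, 8.19 and 7.12 in NeuNT/H1074R tumours and 7.28, 7.73, 7.56 and 8.36 in NeuNT tumours. Its 2.49-fold range was spanned by the NeuNT/H1074R tumours alone. Replicates 1 and 3 of NeuNT/H1074R and NeuNT replicate 4 stood well above the others, and the log2 difference was −0.00 ± 0.36 (SE).

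Ppan, a large subunit maturation factor, stood at 7.14, 7.38, 7.44 and 7.62 in NeuNT/H1074R tumours, against 7.76, 7.35, 6.36 and 7.62 in NeuNT tumours. NeuNT replicate 3 was far below the rest, and without it the log2 difference of 0.12 ± 0.29 (SE) was −0.18. Pa2g4, a growth-regulated protein that binds ErbB3 and ribosomal particles, was one of the steadiest members, with a 1.29-fold range. It read 10.18, 10.31, 10.28 and 10.17 in NeuNT/H1074R tumours and 10.13, 10.41, 10.14 and 10.50 in NeuNT tumours. Pa2g4 differed by −0.06 ± 0.12 (SE) between genotypes, and by 0.01 without NeuNT replicate 4. The remaining large subunit genes, Nop16, Gnl3, Ddx21 and Nip7, had log2 differences of −0.01, 0.16, −0.01 and 0.12, and those of Nop16 and Ddx21 turned to 0.11 and 0.09 without NeuNT replicate 4.

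The metabolic genes showed the same spread within genotypes. Srm, spermidine synthase, stood at 9.56, 8.85, 9.76 and 8.34 in NeuNT/H1074R tumours, against 8.64, 9.60, 8.99 and 9.78 in NeuNT tumours. Its 2.71-fold range came from a high and a low pair of tumours in each genotype, and the log2 difference was −0.13 ± 0.36 (SE), or 0.13 without NeuNT/H1074R replicate 4 and −0.66 when both tumours with high muscle markers were dropped. Odc1, ornithine decarboxylase, the enzyme before Srm in polyamine synthesis, ranged from 7.54 to 8.11 in NeuNT/H1074R tumours and from 7.42 to 8.46 in NeuNT tumours. Cad, which starts pyrimidine synthesis, ranged from 6.02 to 6.96 in NeuNT/H1074R tumours and from 6.36 to 6.91 in NeuNT tumours. The Cad and Srm signals moved closely together over the tumours (r = 0.95, n = 8), and the log2 differences of Odc1 and Cad were −0.01 and −0.02.

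Across the 8 tumours, with both genotypes pooled, the members varied together. The 406 pairs among the 29 measured ribosome biogenesis and metabolic members had a median r of 0.54 over the 8 tumours, and 54.4% of pairs reached 0.5, where all pairs of tested genes had a median of 0.00 and 13.0% reached 0.5. Ddx21 and Noc2l (0.97), Npm1 and Gnl3 (0.96) and Pes1 and Wdr12 (0.95) were the closest pairs, and Rrp12 and Ppan (−0.33) the least alike. The r of a gene with the mean of the other members was highest for Heatr1 (0.93), and was also high for Wdr43 (0.89) and Dkc1 (0.87). It was lowest for Ppan (0.27) and Ubtf (0.35). These correlations share the 8 arrays and their scaling and are given as a description.

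The mean of the 29 members, each centred on its own mean over the tumours, was 0.20, −0.09, 0.22 and −0.19 in NeuNT/H1074R replicates 1 to 4, and −0.08, −0.07, −0.25 and 0.25 in NeuNT replicates 1 to 4 (log2). High values were thus found in NeuNT/H1074R replicates 1 and 3 and in NeuNT replicate 4. In these tumours 27, 28 and 28 of the 29 members lay above their own mean, where 51.2%, 46.7% and 45.6% of all genes did. NeuNT replicate 3 and NeuNT/H1074R replicate 4 were at the other end, with 4 and 5 of the 29 above their mean, and NeuNT replicate 3 held the lowest value of 13 members. Averaged over all 33 members, the level was 0.02 ± 0.20 in NeuNT/H1074R and −0.02 ± 0.20 in NeuNT tumours (SD, n = 4 each), so the gap of 0.05 was well inside the spread. Its sign depended on single tumours, since it turned to −0.01 when replicate 3 of NeuNT, or replicate 1 or 3 of NeuNT/H1074R, was left out, and leaving out NeuNT replicate 4 gave 0.14.

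**Figure D2:**
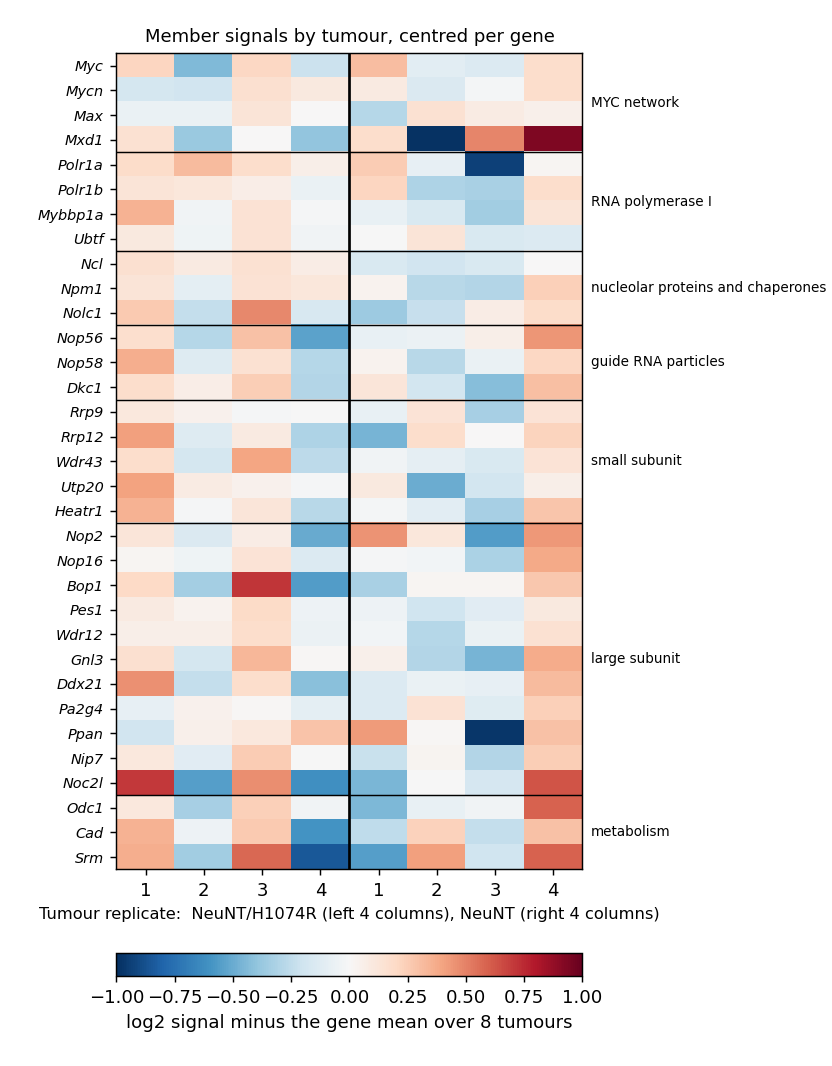
Log2 signal of each member minus its mean over the 8 tumours, genes in rows by role, tumours in columns with NeuNT/H1074R replicates 1 to 4 left of NeuNT replicates 1 to 4. Columns 1 and 3 of NeuNT/H1074R and column 4 of NeuNT are mostly red, and column 3 of NeuNT is mostly blue. In the red columns 27, 28 and 28 of the 29 ribosome biogenesis and metabolic members are above their mean.

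Set against Myc, most members followed its level loosely. Of the 32 other members, 30 had a positive Pearson r with Myc over the 8 tumours, against 49.0% of all genes, and 12 reached 0.5, against 10.8%. Because the members varied together, these counts are not 32 separate observations. The median r was 0.45 over the members and −0.01 over all genes. Positive r with Myc was also common in other lists, with a median of 0.58 over 38 cell cycle genes, of which 37 were above 0, and of 0.59 over 9 milk genes, of which 8 were. When both tumours with high muscle markers were dropped, the median over the members was 0.30. No member passed over all genes tested (exact two-sided permutation, smallest adjusted p = 0.930), as was the case for 0.0% of the 16634 genes compared, and 2 members had an unadjusted p under 0.05, against 4.91% of all genes. Spearman's rho gave 0 genes past the threshold as well, with 2 members at an unadjusted p under 0.05. With 40320 orders of the tumours, a gene alone at the smallest possible p could not pass over 16634 genes. These counts of 0 were thus nearly fixed in advance, and no conclusion is drawn from them. With genotype means removed the median r of the members was 0.55, and that of all genes was −0.01.

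Wdr43 tracked Myc most closely (r = 0.73, rho = 0.81, exact permutation p = 0.0382, adjusted p = 0.930), followed by Nop58 (r = 0.73, rho = 0.71, exact permutation p = 0.0436, adjusted p = 0.930). Nop2 and Nop56 came next, with r of 0.70 and 0.68. At the other end were Max (r = −0.25), Pa2g4 (−0.04), Ncl (0.02) and Rrp9 (0.12). For Ncl, the member with genotypes apart, r was 0.56 with genotype means removed. The median r with Myc was 0.43 for the 6 members with CACGTG in their window and 0.44 for the 22 others with a window.

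NeuNT replicate 1 stood apart from the other tumours when Myc was set against the members' level. It had the highest Myc signal, 9.65, yet a member level of −0.08. NeuNT/H1074R replicate 2 had the lowest Myc, 8.90, with a level of −0.09, inside the range of the other tumours with low Myc. These are the tumours farthest from the median of Myc. Myc and the mean of the 29 members had r = 0.64 and rho = 0.57 over all 8 tumours, and r = 0.96 and rho = 0.71 over the 6 others. With single tumours left out r ran from 0.59 to 0.82, the highest without NeuNT replicate 1, and it was 0.715 without NeuNT/H1074R replicate 2 (rho = 0.46). Without both, the median r of single members with Myc was 0.77, and that of all genes was −0.04.

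**Figure D3:**
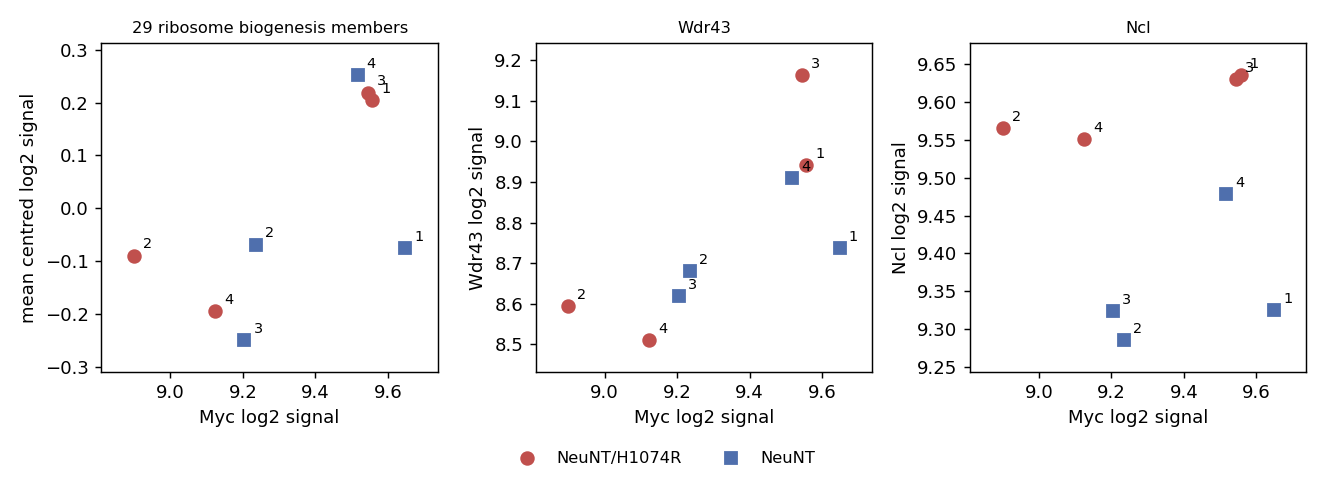
Myc log2 signal (horizontal axes) against the mean centred log2 signal of 29 ribosome biogenesis and metabolic members, and against the log2 signals of Wdr43 and Ncl. Circles are NeuNT/H1074R tumours and squares are NeuNT tumours, numbered by replicate. NeuNT replicate 1 lies at the highest Myc (9.65) with a member level of −0.08, and all 4 NeuNT/H1074R tumours lie above all NeuNT tumours for Ncl.

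The genes outside the list with a pattern most like Myc over the 8 tumours were Tspan33 (r = 0.96), Rbm28 (0.95), Mrpl50 (0.95), Kcmf1 (0.93) and Jmy (0.93), none of which passed (exact permutation, adjusted p = 0.930). Among 16 other MYC network genes and regulators, 0 passed and 7 had a log2 difference above 0, with a median of −0.05, which was 0.01 without NeuNT/H1074R replicate 4. Mlx, the MAX-like partner of the glucose sensors of the network, was the one with genotypes apart. Its log2 signal was 7.66, 7.62, 7.57 and 7.69 in NeuNT/H1074R tumours, against 7.95, 7.97, 7.87 and 7.93 in NeuNT tumours. Mlx differed by −0.30 ± 0.10 (SE; limma, adjusted p = 0.978), where 1.1% of all genes were apart in that direction. Pim1, a kinase that stabilises MYC, differed by −0.59 ± 0.37 (SE) and Mxd3 by −0.17 ± 0.13 (SE) on the log2 scale.

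Ribosome assembly genes outside the list followed the same tumours with smaller swings. Of 99 listed, 91 were measured, 0 passed, and 45 had a log2 difference above 0, with a median of −0.00. Their mean level was 0.07, −0.08, 0.11 and −0.07 in NeuNT/H1074R replicates 1 to 4 and 0.02, −0.06, −0.07 and 0.09 in NeuNT replicates 1 to 4. Taf1d, a subunit of the polymerase I selectivity factor, had the smallest p among them, with 11.73, 12.36, 12.02 and 12.55 in NeuNT/H1074R tumours and 11.89, 11.11, 10.80 and 11.39 in NeuNT tumours. Taf1d differed by 0.87 ± 0.26 (SE) and missed the threshold (limma, unadjusted p = 0.00864, adjusted p = 0.978), and NeuNT replicate 1 overlapped the other genotype. Las1l and Riok1, which act on the large and the small subunit precursor, differed by 0.40 ± 0.17 (SE) and 0.32 ± 0.16 (SE).

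Cytosolic ribosomal protein genes, the parts that these factors assemble, leaned to NeuNT/H1074R. Of 79 listed, 59 were measured, 46 had a log2 difference above 0 and 0 passed, with a median of 0.10. NeuNT replicate 3, low in many members, was also low here. Their mean level was −0.00, −0.07, 0.21 and 0.06 in NeuNT/H1074R replicates 1 to 4 and −0.00, −0.09, −0.28 and 0.16 in NeuNT replicates 1 to 4, and without NeuNT replicate 3 the median difference was 0.01, with 31 of 59 above 0. With array medians centred 39 of 59 stood above 0, and with quantile normalization 44. Rpl39, Rps28 and Rpl3 had log2 differences of 0.32 ± 0.13 (SE), 0.27 ± 0.13 (SE) and 0.33 ± 0.17 (SE). Rpl39 was dim, with means of 5.18 in NeuNT/H1074R and 4.86 in NeuNT tumours.

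Other MYC targets of metabolism and translation had a median log2 difference of 0.01, with 23 of 42 above 0 and 0 past the test. That median ran from −0.04, without NeuNT/H1074R replicate 3, to 0.09, without NeuNT/H1074R replicate 4. They included the purine enzyme Atic (0.29 ± 0.11 SE), the helicase Eif4a1 (0.25 ± 0.12 SE) and the cap-binding protein Eif4e (−0.28 ± 0.14 SE). Of 6 other polyamine genes and 11 genes that MYC is known to lower, 0 passed, with medians of −0.13 and 0.10 on the log2 scale. Neither sign was stable. The polyamine median turned to 0.02 without NeuNT replicate 3, and to 0.01 when replicate 4 of NeuNT or replicate 2 of NeuNT/H1074R was dropped. The median of the genes that MYC lowers was −0.01 when replicate 1 of NeuNT was dropped, and −0.03 when replicate 3 of NeuNT/H1074R was. Polyamine genes of smallest p were Oaz1 (0.26 ± 0.17 SE), the antizyme inhibitor Azin1 (−0.39 ± 0.26 SE) and Azin2 (−0.22 ± 0.17 SE). Among genes that MYC lowers they were Pdgfrb (0.18 ± 0.21 SE) and Ndrg2 (−0.47 ± 0.64 SE). The next was the cell cycle inhibitor Cdkn1a (0.20 ± 0.28 SE).

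Cell cycle genes and markers of other cell types also differed from tumour to tumour. The log2 difference was below 0 for 33 of 38 cell cycle genes (median −0.23, or −0.02 without NeuNT/H1074R replicate 4). It was below 0 for 10 of 10 macrophage, 10 of 12 fibroblast and 8 of 9 adipocyte markers (medians −0.34, −0.26 and −0.77). The same held for 8 of 9 lymphocyte and 8 of 9 milk markers (medians −0.33 and −2.03). Above 0 were 11 of 11 skeletal muscle markers (median 1.06), 6 of 12 luminal, 2 of 7 basal and 3 of 9 endothelial markers. Single tumours moved several of these medians. Without NeuNT/H1074R replicate 3 the macrophage median was −0.05, with 4 of 10 markers above 0, and the fibroblast median was −0.11. Without NeuNT replicate 4 the lymphocyte median was −0.10. Adipocyte and milk medians were at most −0.41 and −1.54 with any single tumour left out. In these lists 0 genes passed. Cell cycle genes averaged 0.08, −0.16, 0.46 and −0.74 in NeuNT/H1074R replicates 1 to 4 and 0.32, −0.62, 0.31 and 0.37 in NeuNT replicates 1 to 4 (centred log2). NeuNT replicate 3, lowest for the members, was thus not low in cell cycle genes, of which 0 of 38 passed. Luminal markers, 12 of 12 measured, averaged between 9.15 and 9.93 in NeuNT/H1074R tumours and between 9.54 and 9.65 in NeuNT tumours (log2), so the epithelial markers of the labelled tissue were present in every tumour.

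Basal markers, 7 of 8 measured, split the tumours of both genotypes. They averaged 0.90, −1.18, 1.32 and −1.18 in NeuNT/H1074R replicates 1 to 4 and −1.16, 1.75, −1.24 and 0.80 in NeuNT replicates 1 to 4 (centred log2). The 3 tumours with high members were among the 4 with high basal markers, and NeuNT replicate 2, the highest in basal markers, had a member level of −0.07. Skeletal muscle markers averaged 1.53, −0.38, 1.24 and −0.50 in NeuNT/H1074R replicates 1 to 4, and between −0.73 and −0.09 in NeuNT tumours. Both tumours with high muscle markers thus had high members, as did NeuNT replicate 4, where muscle markers stood at −0.61. Without NeuNT/H1074R replicates 1 and 3 the median member difference was −0.07, with 12 of 33 above 0 and 0 past the test. These tumours held the highest member levels of their genotype, so the fall follows from dropping them and does not single out muscle. The part of these cell types in the members' levels was not tested.

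**Figure D4:**
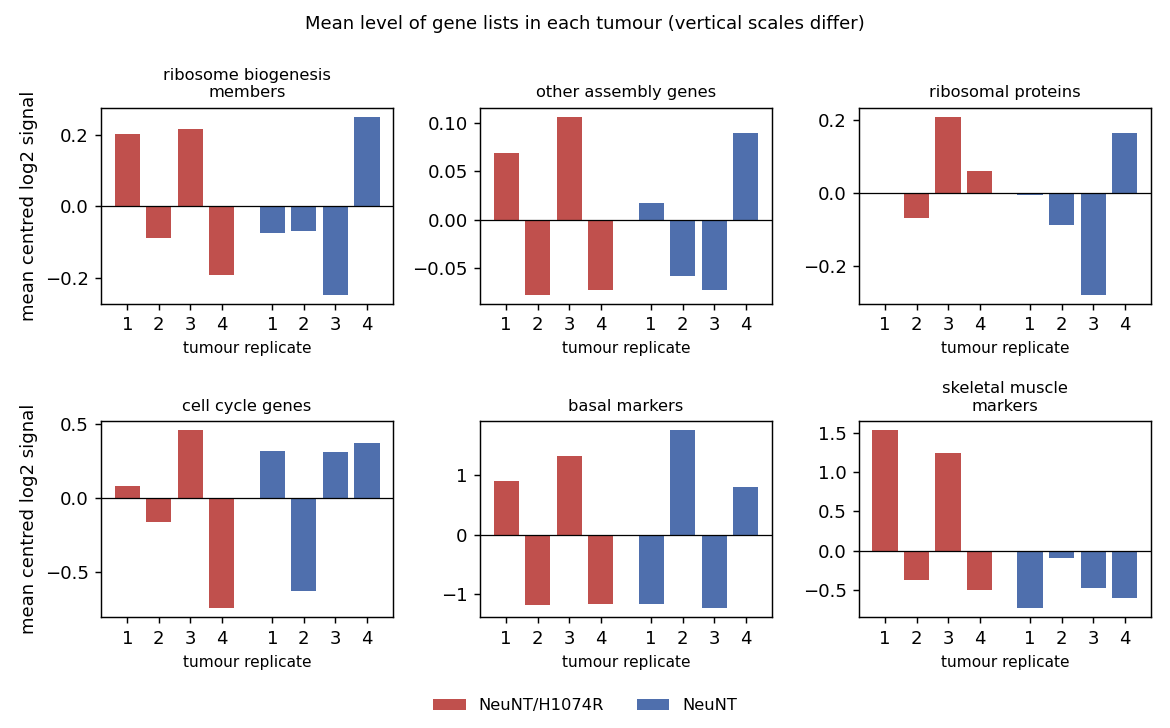
Mean centred log2 signal of 6 gene lists in each tumour (bars), NeuNT/H1074R replicates 1 to 4 left of NeuNT replicates 1 to 4, with a vertical scale for each panel. The panel of ribosome biogenesis members includes the metabolic members. These and other assembly genes are highest in NeuNT/H1074R replicates 1 and 3 and NeuNT replicate 4. Basal markers are also high in NeuNT replicate 2 (1.75) and muscle markers only in NeuNT/H1074R replicates 1 and 3.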

How the data were processed

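The authors deposited 1 table of log2 signals with 41345 probes and a column per tumour. The submitters' processing notes name 2 programs, Affymetrix Expression Console and Transcriptome Analysis Console. How background was corrected and arrays normalized was not given in the sources used here, nor were versions. That the deposited values are log2 was read from their range, 0.887 to 13.6. Arrays carry no read depth, and their number limits the precision.

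Probes were named from the platform annotation. Probes with several symbols were left out, the probe with the highest mean stood for a gene, and the lowest 25% of genes were left out as dim, which left 16635. Genotypes were compared with limma 3.58.1 (R 4.3.3, intensity trend, two-sided, Benjamini-Hochberg over all tested genes, threshold 0.05). Correlations with Myc used all 40320 orders of the tumours for exact two-sided p-values, adjusted over all genes. Both tests were checked on simulated data. The members and lists were chosen with earlier results of these data known. Named genes followed a rule: the 4 MYC network members, the 6 members of smallest p, the 4 of highest and the 4 of lowest r with Myc, the 4 of widest range, up to 3 genes of smallest p per other list, and 5 outside genes most like Myc. Others were named after their values were seen. Plots were drawn with matplotlib 3.10.9.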

Additional observations from a re-analysis of the deposited data

Results flagged for a closer look

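Of 66 groups of 4 tumours (33 members in 2 genotypes), 2 held a tumour far from the other 3, where chance at 1 in 20 gives about 3.3. Npm1 in NeuNT/H1074R replicate 2 stood at 10.12, while replicates 1, 3 and 4 of that genotype lay between 10.33 and 10.36. Ddx21, an RNA helicase of rRNA processing, stood at 8.43 in NeuNT replicate 4, against 7.98 to 8.05 in the other NeuNT tumours.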

How the results depend on the processing

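No paired analysis was possible because no tumour number occurs in both genotypes. The alternatives left out each tumour, normalized the arrays by quantiles, centred them on their medians, changed the filter on dim genes, averaged the probes of a gene, dropped the intensity trend or weighted the arrays. A fit without both NeuNT/H1074R tumours with high muscle markers was chosen after seeing the data. Those tumours also had the highest member levels of their genotype, so lower values in that fit are no measure of muscle. Under each alternative, that fit included, limma called 0 genes and 0 members, and the smallest adjusted p of a member was 0.726. In the correlation with Myc 0 members passed under those that bear on it. That count was nearly fixed in advance by the few orders of so few tumours, so no conclusion is drawn from it. Of 527 member differences under an alternative, 56 had the opposite sign, and 12 of 33 members never did; in the cases below the cause was not tested.

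With quantile normalization Max stood at 0.037, Nop16 at 0.026, Ddx21 at 0.028, Odc1 at 0.026, Cad at 0.014 and Noc2l at 0.040. With centred arrays Bop1 stood at −0.011, and with probes averaged Nop56 at 0.15. With array weights the median over members was −0.0064, Nop58 stood at −0.033, Rrp12 at −0.024, Bop1 at −0.14 and Wdr43 at −0.025. Without both tumours with high muscle markers the median over members was −0.074 and the level difference −0.12, with Nop58 at −0.18, Nolc1 at −0.12, Rrp12 at −0.20, Bop1 at −0.45, Wdr43 at −0.18, Gnl3 at −0.0003, Dkc1 at −0.067 and Heatr1 at −0.10.

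With single tumours left out, ranges that crossed 0 were −0.21 to 0.0069 for Myc, −0.12 to 0.0002 for Mycn, −0.10 to 0.049 for Max, −0.063 to 0.15 for Nop58, −0.12 to 0.11 for Nop16, −0.035 to 0.12 for Rrp9, −0.12 to 0.14 for Rrp12, −0.23 to 0.20 for Bop1, −0.053 to 0.16 for Wdr43, −0.17 to 0.12 for Ddx21, −0.12 to 0.0052 for Pa2g4, −0.16 to 0.18 for Odc1, −0.14 to 0.18 for Cad, −0.34 to 0.13 for Srm, −0.032 to 0.21 for Dkc1, −0.18 to 0.28 for Ppan, −0.011 to 0.20 for Heatr1 and −0.24 to 0.21 for Noc2l. The level difference ran from −0.014 to 0.14. The median r of members with Myc ran from 0.38 to 0.60 with single tumours left out. It was 0.30 without both tumours with high muscle markers, 0.77 without the pair farthest from the median of Myc and 0.55 with genotype means removed.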
